A study of Homo sapiens with 9 samples.

Results

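The 10 genes described here are linked to the writing or removal of methyl groups on cytosine in DNA. They were taken by symbol from the 19984 genes of the RNA-seq table of *EPCART*-del and WT clones of LNCaP, a prostate cancer cell line, and all 10 were found and passed the filter on low values. Of these, 5 are grouped here as writers (*DNMT1*, *DNMT3A*, *DNMT3B*, *UHRF1* and *UHRF2*) and 5 as erasers (*TET1*, *TET2*, *TET3*, *TDG* and *MBD4*), although not all of them act on the methyl group themselves. Poly(A) RNA of 9 cultures was sequenced, with 3 cultures for each of del-4, del-56 and WT. Both deletion clones lack the promoter and the first exons of the long noncoding RNA gene *EPCART* after CRISPR-Cas9 cutting, the WT clone came through the same procedure without the deletion, and all clones grew for 48 h in RPMI 1640 medium with FBS, glutamine and penicillin-streptomycin. With 1 WT clone, the effect of the deletion and a difference between clones cannot be told apart, and p-values measure the spread between cultures of a clone.

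DNA methylation in mammals is set de novo by *DNMT3A* and *DNMT3B* and copied onto the new strand after replication by *DNMT1*, which is brought to hemimethylated DNA by *UHRF1*. The TET enzymes oxidise 5-methylcytosine with 2-oxoglutarate as cosubstrate, and *TDG* excises some of the oxidised bases so that base excision repair can restore an unmodified cytosine. Promoters rich in CpG are usually free of methylation, and where they gain methylation the gene is kept silent, as for many germline genes in somatic cells. Methylation itself was not measured in these libraries.

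The libraries held 91074556 to 118877134 reads on genes. The luminal prostate markers *KLK3*, *KLK2*, *TMPRSS2* and *FOLH1* together summed to normalized counts of 136992 to 143386 in the WT libraries, 125881 to 127721 in those of del-4 and 100024 to 103534 in those of del-56. The sum hides opposite changes. In each deletion clone 1 of the 4 was higher than WT and 3 were lower, at an adjusted p under 0.05 by limma. The median log2 fold change was -0.46 in both. Of 7 markers of other cell types, *COL1A2*, *TP63*, *KRT5*, *PTPRC* and *PECAM1* stayed below 10 in every library, while *VIM* and *COL1A1* were present. The 7 together summed to 1661 to 1918 in del-4, 1808 to 1962 in del-56 and 1998 to 2119 in WT, and the part of either marker list in the results was not tested. Values below are normalized counts, meaning reads on a gene divided by a size factor per library, and fold changes are on the log2(normalized count + 1) scale.

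Promoter sequences are shown for 3 members, because their CpG content sets the scale for the genes off in a clone, described at the end. They are also shown for 3 genes that were on in WT and off in a deletion clone. Each is the 250 bases before the start of the MANE Select transcript in GENCODE 44, read 5′ to 3′ on the strand of the gene from hg38, with every CpG in capitals. The *DNMT3A* window, chr2:25341926-25342175 on the minus strand, held 33 CpGs. The window of *TET2*, chr4:105146626-105146875 on the plus strand, held 34. *TET1*, at chr10:68560087-68560336 on the plus strand, was the only member whose window was not CpG-rich, with 9 CpGs. *LACC1* at chr13:43879654-43879903 (plus strand, 31 CpGs), *H2AJ* at chr12:14774155-14774404 (plus strand, 16 CpGs) and *MAGEC1* at chrX:141903644-141903893 (plus strand, 11 CpGs) are the genes shown that were off in del-56. The window of *MAGEC1* was not CpG-rich.
DNMT3A: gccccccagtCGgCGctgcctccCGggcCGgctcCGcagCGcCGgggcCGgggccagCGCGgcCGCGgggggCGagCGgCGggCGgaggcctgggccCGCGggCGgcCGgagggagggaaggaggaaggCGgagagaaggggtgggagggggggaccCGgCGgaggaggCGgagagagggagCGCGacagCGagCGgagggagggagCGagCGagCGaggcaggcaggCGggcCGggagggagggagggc
TET2: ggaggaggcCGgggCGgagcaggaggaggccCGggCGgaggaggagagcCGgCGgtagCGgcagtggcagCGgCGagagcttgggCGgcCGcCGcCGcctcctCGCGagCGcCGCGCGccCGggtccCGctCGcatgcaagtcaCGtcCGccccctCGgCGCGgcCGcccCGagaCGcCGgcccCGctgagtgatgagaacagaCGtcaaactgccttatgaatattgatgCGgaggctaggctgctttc
TET1: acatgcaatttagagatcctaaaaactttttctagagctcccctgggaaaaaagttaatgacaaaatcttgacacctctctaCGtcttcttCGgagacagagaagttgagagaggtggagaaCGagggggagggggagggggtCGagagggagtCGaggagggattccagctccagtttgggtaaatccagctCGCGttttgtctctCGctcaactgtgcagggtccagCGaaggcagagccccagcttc
LACC1: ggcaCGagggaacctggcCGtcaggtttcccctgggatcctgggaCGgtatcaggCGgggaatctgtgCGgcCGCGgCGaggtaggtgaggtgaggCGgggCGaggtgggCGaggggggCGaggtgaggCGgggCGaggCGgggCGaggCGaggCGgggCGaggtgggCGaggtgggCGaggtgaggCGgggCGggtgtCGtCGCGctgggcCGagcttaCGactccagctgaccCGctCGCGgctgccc
H2AJ: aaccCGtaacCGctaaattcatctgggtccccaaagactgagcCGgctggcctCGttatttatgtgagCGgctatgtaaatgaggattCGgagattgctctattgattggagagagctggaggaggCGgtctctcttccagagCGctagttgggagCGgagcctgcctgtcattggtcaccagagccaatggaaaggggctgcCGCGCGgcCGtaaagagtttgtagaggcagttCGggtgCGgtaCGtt
MAGEC1: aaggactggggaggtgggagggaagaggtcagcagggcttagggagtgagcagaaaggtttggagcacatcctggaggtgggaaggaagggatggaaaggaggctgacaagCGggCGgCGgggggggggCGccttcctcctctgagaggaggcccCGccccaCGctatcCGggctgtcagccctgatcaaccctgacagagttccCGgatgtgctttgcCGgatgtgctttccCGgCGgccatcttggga

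A window was called CpG-rich at a GC content of at least 50% and a ratio of observed to expected CpG of at least 0.6, which 63.4% of 19038 promoters met. Across all promoters the median was 18 CpGs. The members ranged from 9 CpGs in *TET1* to 37 in *TET3*, and 9 of 10 were CpG-rich. The GC box GGGCGG was found, on either strand, in the windows of 7 members (5 copies in *TET2*) and in 60.0% of all promoters. The CCAAT box CCAAT was found in *UHRF1*, *TDG* and *MBD4*, against 34.4% of all promoters. An E2F site, searched as TTTCCCGC or TTTGGCGC on both strands, was found only in *UHRF1* among the members and in 2.69% of all promoters. These matches are descriptions of the letters.

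All 10 members were transcribed in every library, between a normalized count of 1028 for *TET1* and 20117 for *DNMT1*, so that none was off in any clone. To compare genes, the normalized count was divided by the length of the MANE Select transcript. In WT the order of these levels per kilobase was *DNMT1* (3611 ± 107, SD, n = 3 cultures here and below), *TDG* (3249 ± 161), *UHRF1* (2941 ± 148), *MBD4* (1257 ± 85), *UHRF2* (577 ± 18.9), *TET3* (531 ± 10.5), *TET2* (266 ± 16.8), *DNMT3A* (259 ± 13.3), *DNMT3B* (259 ± 13.2) and *TET1* (132 ± 2.95). *DNMT1* and *UHRF1* thus stood far above both de novo enzymes. The SDs of *TDG* and *UHRF1* overlapped, as did those of *TET2*, *DNMT3A* and *DNMT3B*, and all other neighbours in the order were apart. Dividing by all annotated exons joined put *UHRF1* (2228) and *TDG* (2117) above *DNMT1* (1238), because the annotated exons of *DNMT1* add up to 15379 bases against 5274 in its MANE Select transcript.

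**Figure D1:**
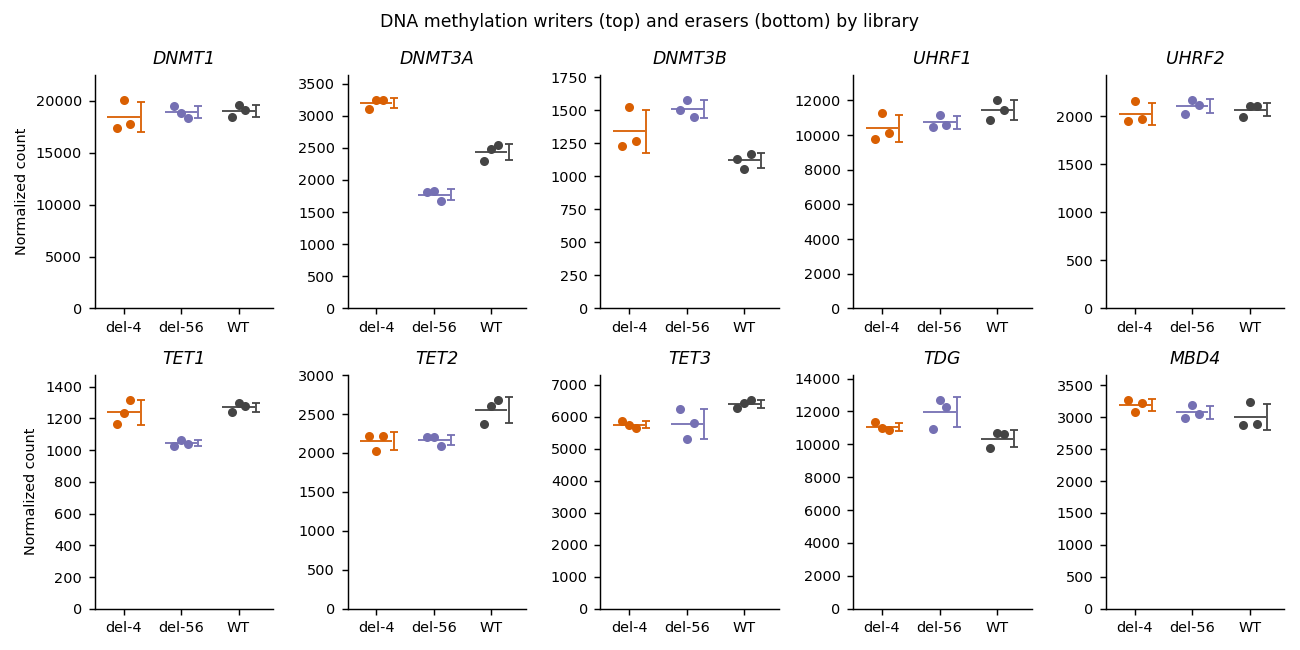
Normalized count (y axis, from 0) of each writer (top row) and eraser (bottom row) in del-4, del-56 and WT, with 1 point per library, a line at the mean and a bar of 1 SD (n = 3). *DNMT3A* forms 3 separate levels, while *DNMT1*, *UHRF2* and *MBD4* overlap in all clones.

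The de novo methyltransferase *DNMT3A* (ENSG00000119772.18, chr2:25227855-25342590, minus strand) moved in opposite directions in the deletion clones. Its normalized count was 3112, 3251 and 3248 in del-4. In del-56 it was 1808, 1829 and 1677, against 2302, 2475 and 2545 in WT. Every del-4 library lay above every WT library and every del-56 library lay below them. From a WT mean of 2441 ± 125, *DNMT3A* rose in del-4 to 3204 ± 79.7, with a log2 fold change of 0.39 (SE 0.052, adjusted p = 7.4e-06 by limma), and fell in del-56 to 1771 ± 82.5, with a log2 fold change of -0.46 (SE 0.061, adjusted p = 1.7e-05 by limma). The direct comparison of del-4 with del-56 gave 0.86 on the log2 scale (SE 0.056, adjusted p = 3.3e-09 by limma), a 1.81-fold difference in which the shared WT libraries play no part. All 3 calls held in every alternative that kept the threshold on the adjusted p.

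Its partner enzyme *DNMT3B* (ENSG00000088305.18, chr20:32762385-32809359, plus strand), which methylates pericentromeric repeats among other targets, was higher in both deletion clones. The del-4 libraries gave 1227, 1528 and 1269, those of del-56 gave 1502, 1582 and 1448, and those of WT gave 1133, 1059.8 and 1173. All 6 deletion libraries exceeded the WT libraries, and del-4 replicate 2 stood above the other del-4 libraries. *DNMT3B* rose in del-56 by 0.43 (log2, SE 0.071, adjusted p = 1.5e-04 by limma) and in del-4 by 0.25 (SE 0.083, adjusted p = 0.022 by limma). The del-4 call was lost without del-4 replicate 2 (adjusted p = 0.14), without WT replicate 2 (0.099) and after rescaling the libraries to the same total (0.11). Between del-4 and del-56 the log2 difference was -0.18 (95% interval -0.35 to -0.0060, adjusted p = 0.14 by limma), and it was called without del-4 replicate 2 (adjusted p = 0.020).

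The de novo enzymes were also set against each other within each library. Per kilobase, the ratio of *DNMT3A* to *DNMT3B* was 1.17, 0.979 and 1.18 in the del-4 libraries, 0.554, 0.532 and 0.533 in del-56, and 0.935, 1.07 and 0.999 in WT. The del-56 libraries lay below all others, with a mean of 0.540 ± 0.012, and those of del-4 and WT overlapped.

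Among the maintenance genes, *DNMT1* (ENSG00000130816.17, chr19:10133342-10231286, minus strand) gave 17376, 20117 and 17805 in del-4, 19542, 18854 and 18378 in del-56, and 18437, 19558 and 19136 in WT. The clones overlapped. Its log2 difference from WT was -0.050 in del-4 (95% interval -0.15 to 0.049, adjusted p = 0.43 by limma) and -0.0091 in del-56 (-0.090 to 0.072, adjusted p = 0.88 by limma). Without del-4 replicate 2, the highest of the 9 libraries, *DNMT1* was called lower in del-4 (adjusted p = 0.029). The annotation places *S1PR2* on the same strand over the upstream side of the *DNMT1* span, before the *DNMT1* MANE Select start. Some reads could belong to either gene.

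*UHRF1* (ENSG00000276043.5, chr19:4903080-4962154, plus strand) measured 9786, 11254 and 10103 in del-4, 10445, 11165 and 10558 in del-56, and 10891, 12042 and 11461 in WT. Deletion libraries tended to lie lower but overlapped WT, and replicate 2 was the highest library of each clone. *UHRF1* fell in del-4 by 0.14 (log2, SE 0.049, adjusted p = 0.024 by limma), a call that was lost without del-4 replicate 1 or 3 and without WT replicate 2 or 3 (adjusted p = 0.095 to 0.15). In del-56 the log2 difference was -0.096 (95% interval -0.19 to -0.0037, adjusted p = 0.093 by limma), and it was called without WT replicate 1 (adjusted p = 0.030) and after rescaling to the same total (0.042). *UHRF2* (ENSG00000147854.17, chr9:6413151-6507054, plus strand), the related ubiquitin ligase, ranged from 1951 to 2171 over the 9 libraries and differed from WT by -0.030 in del-4 (95% interval -0.15 to 0.092, adjusted p = 0.72 by limma) and by 0.027 in del-56 (-0.094 to 0.15, adjusted p = 0.75 by limma). Reads of *UHRF2*, *DNMT3A*, *TET1* and *TDG* could be shared with processed pseudogenes named after them.

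The dioxygenase *TET2* (ENSG00000168769.14, chr4:105145875-105279816, plus strand) was lower in both deletion clones. Its normalized count was 2221, 2021 and 2216 in del-4, 2204, 2205 and 2094 in del-56, and 2371, 2603 and 2682 in WT. The deletion clones shared a range that did not reach WT. *TET2* fell by 0.24 in del-4 (log2, SE 0.060, adjusted p = 0.0030 by limma) and by 0.23 in del-56 (SE 0.059, adjusted p = 0.0046 by limma), and both calls held without any 1 library. The difference between the deletion clones was -0.011 (95% interval -0.13 to 0.11, adjusted p = 0.92 by limma).

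*TET3* (ENSG00000187605.16, chr2:73984910-74108176, plus strand), which oxidises methylated DNA of the paternal genome in the zygote, had the highest TET level per kilobase. Its libraries gave 5856, 5743 and 5633 in del-4, 6242, 5311 and 5791 in del-56, and 6269.8, 6411 and 6522 in WT. All WT libraries were the highest, with del-56 replicate 1 close to WT replicate 1. *TET3* fell by 0.16 in del-4 (log2, SE 0.039, adjusted p = 0.0032 by limma). In del-56 it fell by 0.15 (SE 0.052, adjusted p = 0.030 by limma), a call that was lost without del-56 replicate 2 or 3 and without WT replicate 2 or 3 (adjusted p = 0.078 to 0.18). The difference between the deletion clones was -0.0064 (95% interval -0.11 to 0.10, adjusted p = 0.95 by limma).

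*TET1* (ENSG00000138336.9, chr10:68560337-68694487, plus strand), best known from embryonic stem cells and germ cells, had the lowest level per kilobase in each clone. Its counts were 1162, 1233 and 1316 in del-4, 1028, 1065 and 1038 in del-56, and 1238, 1293 and 1276 in WT. The del-56 libraries lay below all others. *TET1* fell in del-56 by 0.28 (log2, SE 0.069, adjusted p = 0.0040 by limma), while del-4 differed from WT by -0.039 (95% interval -0.19 to 0.11, adjusted p = 0.70 by limma). Tested directly, del-4 exceeded del-56 by 0.24 (SE 0.075, adjusted p = 0.029 by limma). That call was lost without del-4 replicate 2 or 3 or any 1 of the del-56 replicates (adjusted p = 0.055 to 0.15) and after rescaling to the same total (0.070).

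The thymine DNA glycosylase *TDG* (ENSG00000139372.15, chr12:103965822-103988874, plus strand), which excises some oxidation products of the TET enzymes, was 11331, 10983 and 10890.2 in del-4, 10933, 12704 and 12249.6 in del-56, and 9749, 10660.4 and 10614 in WT. WT libraries were the lowest, and the deletion clones overlapped each other. *TDG* rose in del-56 by 0.21 (log2, SE 0.052, adjusted p = 0.0047 by limma). In del-4 the log2 difference was 0.099 (95% interval 0.015 to 0.18, adjusted p = 0.057 by limma). Between del-4 and del-56 the difference was -0.11 (adjusted p = 0.12 by limma) and was called without del-56 replicate 1 (adjusted p = 0.0032) and after rescaling to the same total (0.031). *MBD4* (ENSG00000129071.10, chr3:129430947-129440179, minus strand), a glycosylase for T and U opposite G at CpG, ranged from 2885 to 3270.1 and differed from WT by 0.086 in del-4 (95% interval -0.027 to 0.20, adjusted p = 0.22 by limma) and by 0.033 in del-56 (-0.085 to 0.15, adjusted p = 0.68 by limma). *MBD4* lies inside the span of *IFT122* on the other strand.

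The comparison of del-4 with WT called 5 of 10 members (2 higher, 3 lower), against 40.7% of 17401 genes tested (20.5% higher and 20.2% lower). That of del-56 with WT called 6 of 10 (2 higher, 4 lower), against 39.7% of 17481 genes (19.2% higher and 20.5% lower). Between del-4 and del-56, 2 of 10 were called, both higher in del-4, against 19.9% of 17447 genes (10.9% higher and 9.0% lower). The groups did not overlap for 5, 6 and 2 members in these comparisons, against 49.5%, 48.7% and 34.7% of genes tested. Among genes whose mean reached 1000, as that of all members did, 52.0%, 51.1% and 24.0% were called, so that the counts of members called were near those of all genes at similar levels. The comparisons with WT share its libraries. The median size of the log2 difference of the members, without sign, was 0.12 in del-4 against WT and 0.18 in del-56 against WT, against 0.13 in both comparisons for genes whose mean reached 1000. No member passed a log2 fold change of 1 in either direction. In bulk RNA, fewer cells with a transcript and less RNA per cell cannot be told apart.

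**Figure D2:**
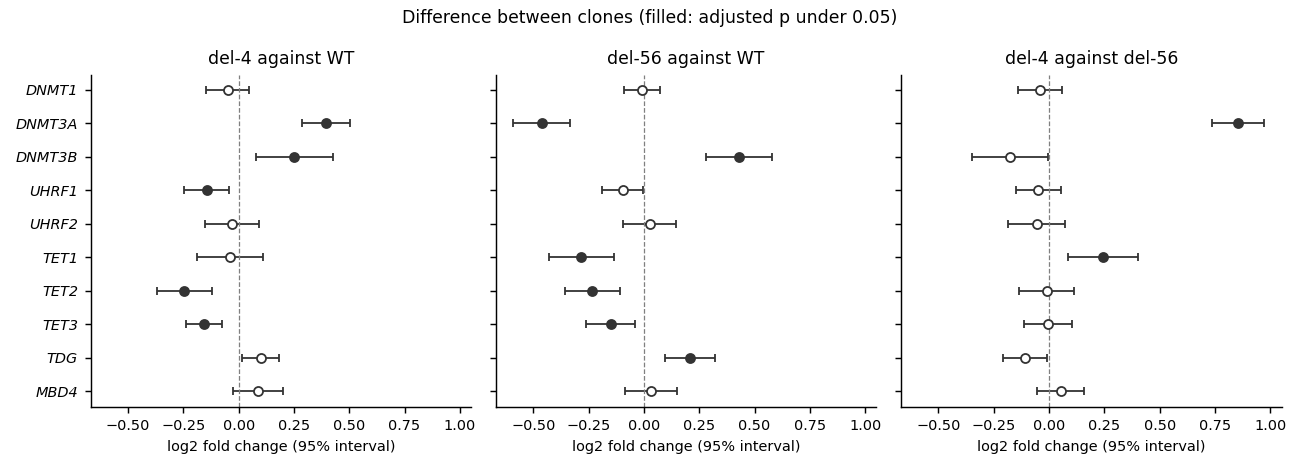
Log2 fold change (x axis) of each member in the 3 comparisons, with 95% intervals from limma (n = 3 libraries a clone) and filled points at an adjusted p under 0.05. *DNMT3A* is at 0.39 in del-4 and -0.46 in del-56 against WT and at 0.86 between the deletion clones, and *TET2* and *TET3* lie below 0 in both comparisons with WT.

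Genes near the members were compared with them, because *DNMT3A* and *TET3* both lie on chromosome 2, where the median log2 fold change over 1122 genes tested was -0.15 in del-4 and over 1123 genes was -0.16 in del-56. For *TET3* the values in del-4 (-0.16) and del-56 (-0.15) were thus near the chromosome medians. The 20 tested genes nearest to *TET3* had medians of -0.061 in del-4, with 4 called higher and 6 lower, and -0.11 in del-56, with 1 higher and 8 lower. The 20 tested genes nearest to *DNMT3A* had a median of -0.18 in del-4, where 12 were called lower and 0 higher. *DNMT3A* rose there, and 19 of the 20 lay below it. In del-56 the same neighbours had a median of -0.23, again with 12 called lower and 0 higher, and 4 of 20 lay below *DNMT3A*. Between the deletion clones the neighbours had a median of 0.025, with 18 of 20 below *DNMT3A*. For *DNMT3B* on chromosome 20, 19 of 20 neighbours in del-4 and 14 of 20 in del-56 lay below it. The part of the chromosome-wide medians in the members' values was not tested.

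**Figure D3:**
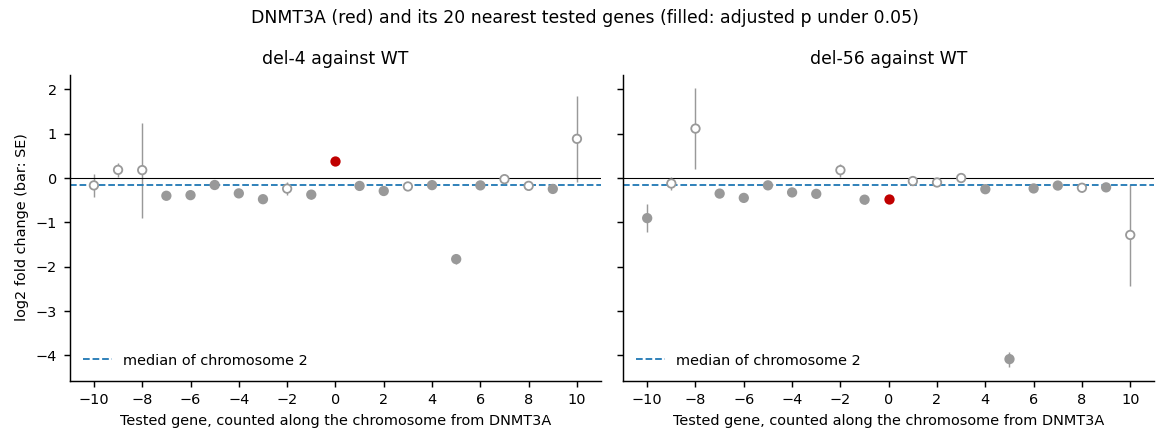
Log2 fold change against WT (y axis, bars of 1 SE) of *DNMT3A* (red) and the 10 tested genes on each side, in chromosome order (x axis), with filled points at an adjusted p under 0.05 and the median of chromosome 2 as a dashed line. *DNMT3A* is above 0 in del-4 at 0.39 among neighbours with a median of -0.18, and at -0.46 in del-56 among neighbours with a median of -0.23.

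The pattern of *DNMT3A* over the 9 libraries was compared with that of 15372 genes with a mean of at least 10, by the root mean square difference of centred log2 values. The nearest were *ST6GALNAC4* (0.081), *KLF5* (0.083), *LRP10* (0.088), *ISG20* (0.096) and *ACBD7* (0.099), on 5 different chromosomes. *KLF5*, a zinc finger factor of epithelial cells, had a mean of 762 in WT, against 932 for del-4 and 534 for del-56. Of the other members, *TET1* was the most like *DNMT3A* at 0.26 and *DNMT3B* the least at 0.47. The closest pair of members was *DNMT1* and *UHRF2* at 0.048, followed by *DNMT1* and *UHRF1* at 0.058. The values were centred but not scaled, so genes that change little come out close to each other. *DNMT1* and *UHRF2* were not called in any comparison, and their closeness says nothing about a shared pattern.

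Genes of proteins that read methylated CpG were set beside the writers. Of 6 genes, 3 rose in del-4 and 3 in del-56, and 0 fell. For scale, the del-4 comparison with WT called 52.0% of all genes whose mean reached 1000, as that of every reader did. The del-56 comparison with WT called 51.1% of such genes. The share of readers called was thus near that of all genes at similar levels. Counts of this list and of the lists below were not tested against these shares. *MBD2*, a methyl-CpG binding protein of a repressor complex, rose by 0.14 in del-4 and 0.20 in del-56 (adjusted p = 0.011 and 0.0017, limma), *ZBTB4* by 0.17 and 0.23 (adjusted p = 0.0050 and 0.0011, limma) and *ZBTB33*, which encodes Kaiso, by 0.20 and 0.16 (adjusted p = 7.0e-04 and 0.0088, limma). The list had medians of 0.067 and 0.086, where the medians of all genes were -0.0028 and -0.0011. In del-4 the calls of *MBD2* and *ZBTB4* were lost after rescaling to the same total (adjusted p = 0.16 and 0.099), and that of *MBD2* also without del-4 replicate 1 (0.053) or WT replicate 3 (0.083). In del-56 the call of *ZBTB33* was lost without del-56 replicate 3 (0.062) or WT replicate 2 (0.059).

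Of 9 partners of the writers, del-4 had 0 higher and 4 lower and del-56 had 1 higher and 5 lower, with medians of -0.077 and -0.12. *LIG1*, the ligase that seals replicated DNA and is bound by *UHRF1*, fell by 0.31 and 0.27 (adjusted p = 6.1e-05 and 0.0016, limma). *USP7*, a deubiquitinase that stabilises *DNMT1* and *UHRF1*, fell by 0.27 and 0.25 (adjusted p = 7.6e-06 and 3.2e-05, limma), and the medians of its chromosome 16 were -0.34 and -0.31. The chromatin remodeller *HELLS* fell by 0.12 and 0.21 (adjusted p = 0.027 and 0.0013, limma) and its partner *CDCA7* by 0.20 and 0.27 (adjusted p = 0.019 and 0.0015, limma). The medians of chromosome 2, where *CDCA7* lies, were -0.15 and -0.16. In del-4 the *HELLS* call was lost without del-4 replicate 1 or 3 or WT replicate 1 or 3 (adjusted p = 0.062 to 0.11) and after quantile normalization (0.052), and that of *CDCA7* without del-4 replicate 1 or 3 or WT replicate 2 or 3 (0.058 to 0.11). *ZBTB24* rose in del-56 by 0.23 (adjusted p = 0.0027, limma).

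Genes of the methionine and S-adenosylmethionine cycle, which supplies the methyl donor, were listed together with *AHCY*-like genes such as *AHCYL1*. The listed genes moved in both directions, where del-4 had 3 of 9 higher and 2 lower and del-56 had 2 higher and 2 lower (medians 0.089 and 0.042). *AHCY*, which hydrolyses S-adenosylhomocysteine, rose by 0.20 in del-4 and 0.13 in del-56 (adjusted p = 4.1e-04 and 0.015, limma), with the del-56 call lost without del-56 replicate 3 (0.077) or WT replicate 3 (0.098). *AHCYL1* rose by 0.31 and 0.36 (adjusted p = 2.1e-06 and 6.6e-07, limma). *MTR*, the methionine synthase, fell by 0.28 and 0.41 (adjusted p = 2.2e-05 and 6.1e-07, limma). The medians of chromosome 1, where *AHCYL1* and *MTR* lie, were 0.11 and 0.12. The weakly expressed *MAT1A* rose in del-4 by 0.99 (means of 114 and 56.8, adjusted p = 0.0043, limma). *BHMT* fell in del-56 by 1.95 (means of 8.19 and 26.2, adjusted p = 0.025, limma), a call lost without del-56 replicate 3 or any 1 of the WT replicates (0.055 to 0.094) and by edgeR on the recovered reads (0.080).

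Among genes that supply cofactor to the TET enzymes or work with them, del-4 had 3 of 9 higher and 2 lower, and del-56 had 2 higher and 2 lower (medians -0.0075 and -0.078). *IDH1*, the cytosolic enzyme that makes 2-oxoglutarate, had normalized counts of 48424, 48066 and 48299.7 in del-4, 41805, 46654 and 46345 in del-56, and 32528, 31818 and 30641 in WT. The clones with the deletion were well above WT. *IDH1* rose by 0.61 in del-4 (SE 0.035, adjusted p = 2.1e-10 by limma) and by 0.50 in del-56 (SE 0.045, adjusted p = 2.9e-07 by limma), on a chromosome 2 with a median below 0. Its mitochondrial counterpart *IDH2* fell by 0.12 and 0.25 (adjusted p = 0.015 and 3.7e-05, limma), with the del-4 call lost without del-4 replicate 2 (0.070) or WT replicate 2 (0.075). *GADD45A*, a stress gene linked to demethylation, rose by 0.47 and 0.28 (adjusted p = 1.0e-05 and 0.0029, limma). It lies on chromosome 1, with the medians given for *AHCYL1*. *CXXC5* rose in del-4 by 0.19 (adjusted p = 0.0054, limma), a call lost after rescaling to the same total (0.082). *D2HGDH* fell in del-56 by 0.22 (adjusted p = 0.0057, limma), where the median of its chromosome 2 was -0.16. *CXXC4*, whose product binds *TET2* protein, was low, with a mean of 19.1 in WT, against 4.66 for del-4 and 28.2 for del-56, and its call in del-4 against WT (adjusted p = 0.021, limma) was lost without del-4 replicate 1 or any 1 of the WT replicates (0.051 to 0.11) and by edgeR on the recovered reads (0.090).

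In base excision repair, del-4 had 2 of 12 genes lower and 0 higher, and del-56 had 1 lower and 1 higher (medians -0.044 and -0.0068). The glycosylase gene *NTHL1* fell by 0.51 and 0.56 (adjusted p = 2.9e-07 and 2.5e-07, limma), on chromosome 16 with the medians given for *USP7*. *NEIL3* fell in del-4 by 0.29 (adjusted p = 0.0029, limma). *OGG1* rose in del-56 by 0.13 (adjusted p = 0.023, limma), a call lost without del-56 replicate 2 or 3 or WT replicate 1 or 3 (0.052 to 0.10) and after rescaling to the same total (0.082).

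Maintenance methylation is tied to S phase, and replication genes were therefore listed beside *DNMT1* and *UHRF1*. Of 14 such genes, del-4 had 7 lower and 1 higher and del-56 had 11 lower and 1 higher, with medians of -0.14 and -0.20. *GINS2* fell by 0.53 and 0.49 (adjusted p = 2.3e-08 and 6.3e-07, limma), also on chromosome 16. The helicase subunits *MCM5* and *MCM6* fell by 0.42 and 0.36 in del-4 and by 0.45 and 0.38 in del-56, with adjusted p from 3.5e-08 to 6.3e-07 by limma. The gene of *MCM6* also lies on chromosome 2, with the medians given for *CDCA7*. *CDC45* fell by 0.27 and 0.35 (adjusted p = 1.3e-04 and 2.4e-04, limma). Over the same libraries *DNMT1* differed from WT by -0.050 and -0.0091 and *UHRF1* by -0.14 and -0.096, and the part of the replication genes' change in these values was not tested.

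**Figure D4:**
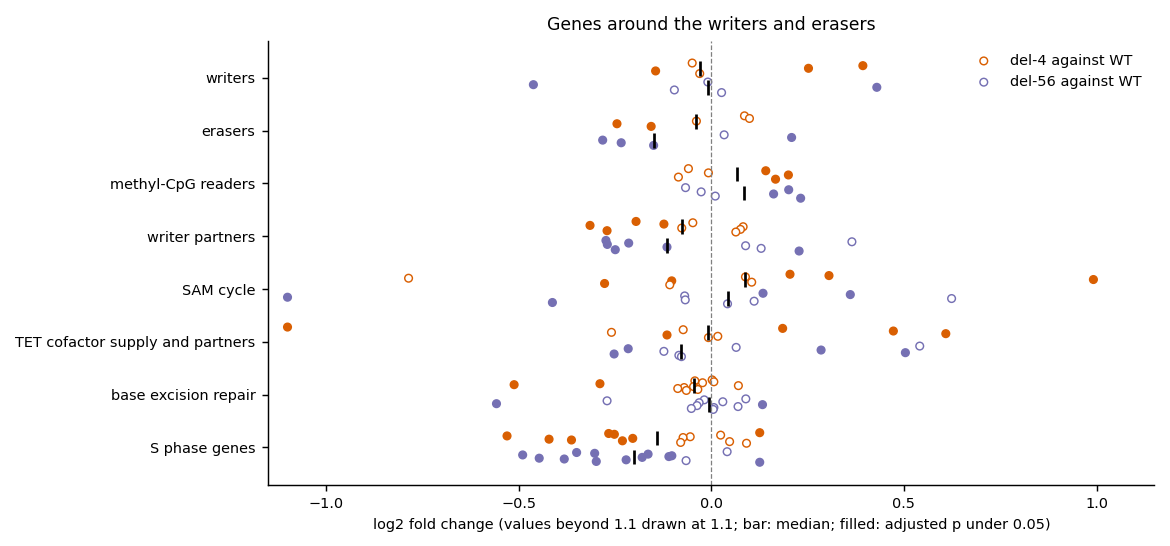
Log2 fold change against WT (x axis) of every tested gene in each list (y axis), in del-4 (orange) and del-56 (purple), with filled points at an adjusted p under 0.05 and a bar at the list median. Readers have medians of 0.067 and 0.086 and S phase genes of -0.14 and -0.20, while writers and erasers hold members on both sides of 0.

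Germline genes that somatic cells silence by promoter methylation were read as a list of 18, of which 15, 14 and 13 passed the filter in del-4 against WT, in del-56 against WT and between the deletion clones. The normalized count was at most 30 in every library for 10 of the 18 and at least 100 in every library for 4. At least 100 in all libraries of a clone was reached by 7 genes for WT, 4 for del-4 and 5 for del-56. In del-4, 2 genes were higher and 5 lower than WT, in del-56 3 were higher and 4 lower, and between the deletion clones 2 were higher and 5 lower in del-4. For scale, the shares of all genes tested were 20.5% higher and 20.2% lower in del-4 against WT. They were 19.2% and 20.5% in del-56 against WT, and 10.9% and 9.0% between the deletion clones. The list was not tested against these shares.

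*MAGEA4*, a cancer-testis gene, was at 12546, 12240.4 and 12842 in WT, at 59.5, 94.6 and 108 in del-4 and at 21.0, 18.1 and 29.1 in del-56. It fell 146-fold in del-4 and 539-fold in del-56 (adjusted p = 1.0e-16 and 1.3e-16, limma). *MAGEC1* was at 245, 253 and 236 in WT, and had 4 reads in a del-4 library and 0 in all others of both deletion clones. Set against a floor of 3 reads per library, which covers no more than counting error, *MAGEC1* was 77.2-fold higher in WT than in del-56. Most low counts were even, as when both mates are counted, so 3 reads can stand for fewer fragments. The ratio is therefore not a strict lower bound. *MAGEC2* was at 1415, 1265 and 1365 in del-56 and from 199 to 303 in WT and del-4, and rose in del-56 by 2.58 on the log2 scale (SE 0.11, adjusted p = 4.2e-11 by limma). *CTAG2* fell from a mean of 53.7 in WT to 1.95 in del-4 and 15.3 in del-56 (adjusted p = 1.3e-05 and 0.0015, limma). Like that of *MAGEC1*, the promoter windows of *MAGEA4* (7 CpGs) and *MAGEC2* (6 CpGs) were not CpG-rich, whereas those of *SYCP3* (19 CpGs) and *TDRD1* (15 CpGs) were. The MAGE-A family holds some near-identical copies, between which reads could be split.

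*SYCP3*, a protein of the meiotic chromosome axis, was at 1858, 1899 and 2027 in del-4, at 1806, 2114 and 2230 in del-56, and at 196, 1435 and 1472 in WT. WT replicate 1 stood far below its own group. *SYCP3* was called higher by 1.37 in del-4 and 1.45 in del-56 (adjusted p = 0.026 and 0.028, limma), and without WT replicate 1 by 0.41 and 0.49 (adjusted p = 2.3e-04 and 6.6e-04). The del-4 call was lost without any 1 of the del-4 replicates (0.052 to 0.11) and the del-56 call without del-56 replicate 2 (0.069) or 3 (0.098). By DESeq2 on the recovered reads neither call was made (adjusted p = 0.39 and 0.34), and with no filter that of del-4 was lost (0.054). The genes *MAGEA10* and *TDRD1*, named after their values were seen, moved oppositely in the deletion clones. *MAGEA10* rose in del-4 by 0.59 and fell in del-56 by 1.04 (adjusted p = 1.1e-09 and 3.8e-10, limma), the directions of *DNMT3A*. *TDRD1*, a piRNA pathway gene, fell in del-4 by 0.87 and rose in del-56 by 0.84 (adjusted p = 0.0011 and 3.0e-04, limma).

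Genes fully on in a clone and off in another were taken as those with a normalized count of at least 100 in all libraries of the first and no more than 3 reads in any library of the second. There were 12, and 0 were members. Because they were chosen by their values they are described without a test. Of the 12, 11 were on in WT and 11 were off in del-56. *H2AJ*, a histone H2A variant gene, was at 2851, 3013 and 2765 in WT, had 4 reads in a del-4 library and 0 in every other deletion library. Against the floor of 3 reads, with the limit given for *MAGEC1*, *H2AJ* was lower in del-56 by a factor of 907. *HENMT1*, which methylates the ends of piRNAs, was at 551, 524 and 451 in WT and at most 9.60 in the deletion clones. *S100A7*, a calcium-binding protein gene of squamous epithelium, was at 452, 398 and 369 in WT, at 3.84 to 14.1 in del-4 and at 0 in del-56. *CCDC122* was at 201, 170 and 151 in WT and was off in both deletion clones. *LACC1*, named because it shares a promoter with *CCDC122*, was at 237, 179 and 238 in WT with 4 reads in a del-4 library. The starts of *LACC1* and *CCDC122* are 164 bases apart on opposite strands, and the window printed for *LACC1* covers the space between them. *SALL2*, a zinc finger factor, was at 576 to 617 in del-4 and 1117 to 1274 in WT and had 0 reads in del-56. *RND3*, an atypical small GTPase, was on only in del-4, at 187 to 319, and off in WT.

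The promoters of the 12 genes held a median of 11.5 CpGs, and 6 of them were CpG-rich, against a median of 20 CpGs and 69.1% of 16904 tested genes with a window. *LACC1* and *CCDC122* (31 CpGs each) and *HENMT1* (35) were as dense as the windows of *DNMT3A* and *TET2*, whereas *S100A7* held 1 CpG. By clone, del-56 held 11 of the 12 genes off and 0 on. WT held 1 off and 11 on, and del-4 held 1 off and 2 on. The count for del-4 rests on the limit of 3 reads, since the remaining 9 genes were at most 36.9 in any del-4 library and 4 of them (*H2AJ*, *MAGEC1*, *LACC1* and *MYOT*) had 4 reads in 1 library and 0 in the others. Any part of the members in these states was not tested.

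**Figure D5:**
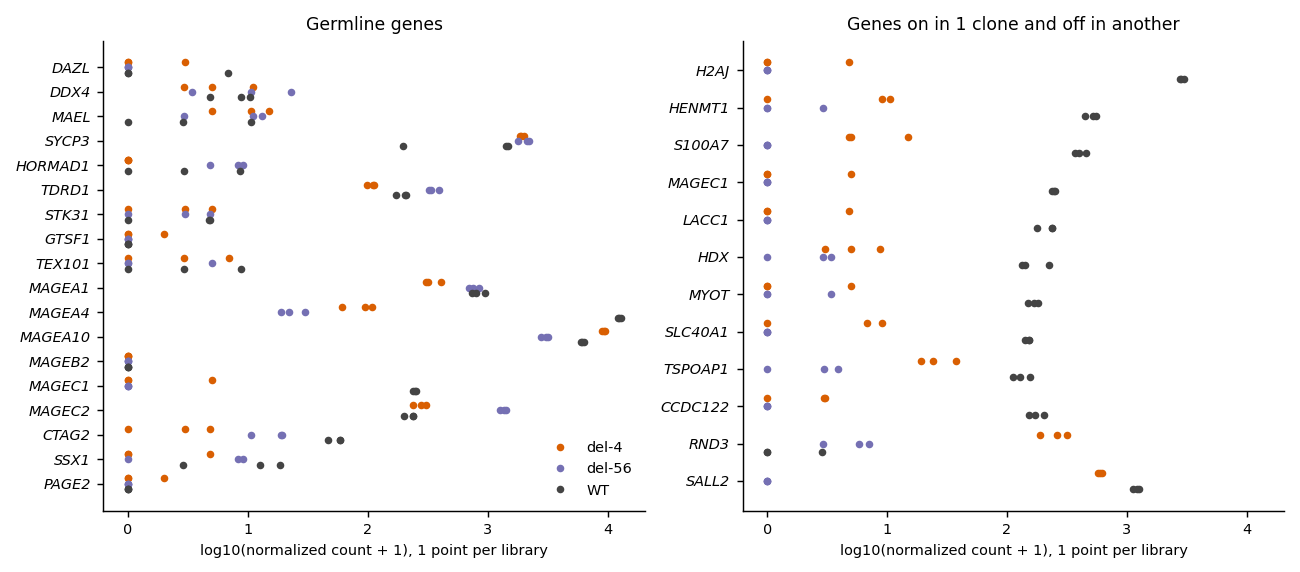
Normalized count plus 1 on a log10 axis (x axis) in each library of del-4 (orange), del-56 (purple) and WT (grey), for the 18 germline genes (left) and the 12 genes on in a clone and off in another (right). *MAGEA4* is at 12240.4 or more in WT and at most 108 in the deletion clones, and 11 of the 12 genes at right are off in del-56.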

How the data were processed

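RNA-seq of 9 cultures was grouped by clone from the labels. The WT columns of the deposited table carry a number that the labels do not explain, and were matched by clone name and replicate number. The culture time of 48 h is that of the study's methods. The authors trimmed reads with Trim Galore 0.6.5 after FastQC 0.11.8, aligned them to GRCh38 with STAR 2.71a, indexed them with SAMtools 1.8 and took counts for protein-coding genes from bedtools 2.27.1. The strand setting of the counting is not given in the sources used here, although libraries were strand-specific. The deposited signal is the read count divided by 1 size factor per library. All values were whole multiples of the value of 1 read (tolerance 1e-06), and 83.8% of values of 1 to 20 reads were even, as when both mates are counted. Of 19984 gene identifiers, 19905 were matched to GENCODE 44, and *EPCART* itself was not analysed here.

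Each pair of clones was compared by limma 3.58.1 (R 4.3.3). The values were log2(normalized count + 1), the variance followed a trend on the mean, and genes entered where the mean of the 6 libraries reached 1. P-values were Benjamini-Hochberg adjusted over all genes tested, and a gene was called, and said to rise or fall, at an adjusted p under 0.05. The steps were tested on simulated data. Intervals are 95% intervals of the limma estimate. Alternatives were other pseudocounts (0.5 and 5), other filters (none, or a mean of 10), scaling of libraries to equal totals, quantile normalization, a joint fit of the 9 libraries, a block for the replicate number, edgeR 4.0.16 with TMM and DESeq2 1.42.0 on the recovered reads, a threshold of unadjusted p under 0.05 with a log2 fold change above 1 or below -1, and leaving out each library. The level per kilobase with joined exons was chosen after seeing the data. Other steps ran in Python 3.11.15.

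The members and lists were chosen with earlier results of these data known. Named were all members, at most 4 called genes of largest size per list and comparison and those a result turned on, the 3 highest on and off genes per pattern, and the 5 genes most like the member with the largest change. Promoters were read from hg38 for 19038 genes with a MANE Select start. Some listed genes and 1 promoter window are not reported here, and list counts leave those genes out.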

Additional observations from a re-analysis of the deposited data

Results flagged for a closer look

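The 2 deletion clones differed from each other, by the direct limma comparison of del-4 with del-56, for 2 members. *DNMT3A* differed by 0.86 on the log2 scale (adjusted p = 3.3e-09), with 3 of 3 del-4 libraries above all 3 del-56 libraries. *TET1* differed by 0.24 (adjusted p = 0.029), with the same separation of the libraries. This call was lost without any 1 of 5 libraries.

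Among the listed genes, those that differed in the same comparison at any library left out were *TDRD1* (-1.71, adjusted p = 7.0e-07), *MAGEA4* (1.88, 6.1e-04), *MAGEA10* (1.63, 1.5e-13), *MAGEC2* (-2.30, 3.7e-11), *RRM2* (0.22, 2.5e-04) and *E2F1* (0.19, 0.0028), with limma adjusted p in each case. The remaining genes lost the call without at least 1 library. *MTR* (0.14, adjusted p = 0.033) lost it without del-4 replicate 1 or 2 or del-56 replicate 2 or 3 (0.068 to 0.15). *IDH2* (0.14, 0.014) lost it without del-4 replicate 1 or 3 or del-56 replicate 2 or 3 (0.068 to 0.098). *ZBTB24* (-0.16, 0.029) lost it without the same libraries as *IDH2* (0.071 to 0.12). *MTRR* (-0.15, 0.043) lost it without any 1 del-4 replicate or del-56 replicate 2 or 3 (0.067 to 0.16), and *GADD45A* (0.19, 0.046) without the same libraries (0.073 to 0.17). *RRM1* (0.11, 0.032) lost it without any 1 del-4 replicate or del-56 replicate 1 or 2 (0.053 to 0.13). *NEIL3* (-0.26, 0.016) lost it without del-4 replicate 1 or 3 or del-56 replicate 2 (0.059 to 0.083). *CXXC4* (-2.85, 0.0097) lost it without del-56 replicate 2 (0.053), *CTAG2* (-2.68, 0.018) without del-4 replicate 2 or del-56 replicate 2 or 3 (0.055 to 0.087) and *HORMAD1* (-2.83, 0.042), at 0 in every del-4 library, without any 1 library (0.061 to 0.16).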

How the results depend on the processing

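Over 480 combinations of a member, a comparison and an alternative, 444 kept direction and side of the threshold, 19 lost a call, 6 gained a call and 11 changed sign. The sign changes concerned differences near 0. With single libraries left out, *TET1* in del-4 against WT ranged from -0.084 to 0.0054 (above 0 without del-4 replicate 1). In del-56 against WT, *DNMT1* ranged from -0.032 to 0.012 (above 0 without del-56 replicate 3 or WT replicate 2) and *UHRF2* from -0.00092 to 0.055 (below 0 without WT replicate 1, and -0.0024 after rescaling to the same total). Between the deletion clones, *DNMT1* ranged from -0.11 to 0.00055 (above 0 without del-4 replicate 1), *TET2* from -0.036 to 0.034 (above 0 without del-4 replicate 2 or del-56 replicate 1 or 2) and *TET3* from -0.066 to 0.050 (above 0 without del-4 replicate 3 or del-56 replicate 1). With an unadjusted p under 0.05 and the fold limit, 1012, 1038 and 747 genes and 0, 0 and 0 members passed in del-4 against WT, del-56 against WT and del-4 against del-56, in place of 7082, 6938 and 3469 genes. On the recovered reads edgeR called 7049, 6943 and 3492 genes and DESeq2 7019, 6877 and 3629, and both called 5, 6 and 2 members. Without single libraries, members called ranged from 3 to 5, 5 to 7 and 1 to 2, and genes called from 5814 to 6669, 5706 to 6941 and 2268 to 3537. The lowest values came without WT replicate 2 (3 members in del-4) and without del-4 replicate 3, del-56 replicate 2 or del-56 replicate 3 (1 member between the deletion clones), and 2268 genes without del-4 replicate 3. On and off genes were 47 at 50 normalized counts with at most 10 reads, 2 at 500 with 0 reads, and 13 to 16 without single libraries. The cause was not tested, except that fewer samples or a stricter threshold enter by construction.

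After centring in each clone, correlations of same-numbered libraries ranged from -0.062 to 0.040, and those of differently numbered libraries from -0.032 to 0.047. Same-numbered libraries had the higher values in del-4 against WT and in del-4 against del-56, and the lower ones in del-56 against WT. All were near 0, and the main fit did not pair libraries by number. With the replicate block, 5, 5 and 2 members and 7038, 6035 and 3393 genes were called, and *TET3* in del-56 lost its call (adjusted p = 0.056), as it did after quantile normalization (0.060). Among the other named genes the block ended the calls of *AHCY* (0.057) and *OGG1* (0.054) in del-56 against WT and of *GADD45A* (0.060) and *HORMAD1* (0.057) between the deletion clones. Between these clones, rescaling to the same total and quantile normalization also ended those of *IDH2* (0.064 and 0.059), *GADD45A* (0.12 and 0.054), *MTR* (0.13 and 0.056) and *RRM1* (0.15 and 0.20), edgeR that of *CTAG2* (0.060) and a pseudocount of 5 that of *HORMAD1* (0.066). There were 3 cultures of each clone and 1 WT clone. The call of *UHRF1* in del-4 against WT was lost without any 1 of 4 libraries, and that of *TET1* between the deletion clones without any 1 of 5. With single libraries left out, these log2 differences ranged from -0.20 to -0.10 and from 0.20 to 0.29. The call of *TET1* in del-56 against WT held without any 1 library (adjusted p = 0.0078 to 0.020, limma).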
